A study of Saccharomyces cerevisiae with 6 samples.

Results

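Antisense long non-coding RNAs (lncRNAs) are transcribed from the strand opposite to a protein-coding gene. In the table of read counts from colony biofilms of the yeast Saccharomyces cerevisiae, 397 loci carry a name made of the word antisense and the name of the gene on the other strand, and all 397 of the 10239 loci with such a name were taken. For 396 of them the row of the sense gene was found in the same table, and these rows belong to 383 different sense genes. The exception was antisense_YDR524W-C. A suffix (sec, ter or 2) ends the name of 19 of the loci, and several of these share a sense gene with another antisense lncRNA.

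All libraries came from BR-F, a wild diploid strain without an engineered allele, grown for 3 days as colonies on a membrane laid over glycerol and yeast extract agar. Aerial cells were harvested above the membrane and root cells, the invasive part of the colony, from the agar below it, each from pools of many colonies, in 3 libraries that the methods describe as independent biological replicates. The aerial material was frozen at once, while the root material was mixed, vortexed and centrifuged before it was frozen. This difference in handling cannot be told apart from that between the cell types. The root material still held traces of agar. Ribosomal RNA had been depleted and the library kit kept the strand of origin, which is what allows both strands of a gene to be counted apart. Each library held 13764726 to 17095539 counts, of which 25184 to 29208 fell on the named antisense lncRNAs. All 7 markers of aerial cells (such as GIP2) were called higher in aerial cells. All 5 markers of root cells (such as ARG1) were called higher in root cells. These markers come from genes that the study reported on these same samples, so their calls are no independent check of the cell types. The 5 markers of sporulating cells were also all called higher in aerial cells, with a summed normalised level of 1619 to 2607 CPM (counts scaled to library size) in aerial and of 502 to 694 CPM in root libraries. The paper states that BR-F colonies were only rarely seen to sporulate, so these RNA levels do not show how many cells sporulated. The part of sporulating cells in the results below was not tested. Of the 5 markers of haploid cells, which a diploid should lack, the summed level was 39.8 to 51.0 CPM in aerial and 30.9 to 33.0 CPM in root libraries, without overlap. Only 1 (STE3, a pheromone receptor) was called, higher in aerial cells (log2 fold change -1.26, adjusted p = 0.00366). STE2 went the other way (0.23, adjusted p = 0.403), with overlap between the cell types. MFA1 (-0.91), MFA2 (-0.75) and FUS1 (-0.98) were not called, and MFA1 and MFA2 also overlapped. The part of haploid cells was not tested either.

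In yeast, antisense RNAs often start in the open chromatin at the end of a gene and run back across it. Many are short-lived, because the nuclear exosome or the cytoplasmic exonuclease Xrn1 removes them soon after they are made. At a few well studied genes, transcription across the opposite strand is known to lower or to delay the sense transcript, while at many others no such relation has been found.

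The strand in question can be read from the end of the sense gene. The antisense lncRNA names give no borders, so the letters below show only the antisense strand, written 5′ to 3′, across the last 60 coding bases of the sense gene in the R64 genome (RefSeq), for 6 antisense lncRNAs on which the results turn. The capitals mark the complement of the sense stop codon. The windows are chrXVI:810984-811043 (plus strand) for MEP3, chrXII:19648-19707 (minus strand) for MMP1, chrXIV:616211-616270 (plus strand) for ASI3, chrIV:387513-387572 (plus strand) for PUS9, chrXV:503287-503346 (minus strand) for ARF3 and chrXI:524223-524282 (plus strand) for PET10.
antisense_MEP3-sec: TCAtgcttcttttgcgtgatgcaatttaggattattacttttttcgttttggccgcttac
antisense_MMP1: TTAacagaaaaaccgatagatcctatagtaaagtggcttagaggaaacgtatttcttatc
antisense_ASI3: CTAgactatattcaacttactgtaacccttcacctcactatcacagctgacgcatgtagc
antisense_PUS9: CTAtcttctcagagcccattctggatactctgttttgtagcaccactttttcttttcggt
antisense_ARF3: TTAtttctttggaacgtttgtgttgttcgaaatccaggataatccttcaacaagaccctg
antisense_PET10: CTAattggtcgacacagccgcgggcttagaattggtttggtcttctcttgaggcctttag

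Most of the antisense lncRNAs were rare. Every one of the 397 had at least 1 read in the 6 libraries together, but only 261 passed the filter on low counts, with 47 to 18916 reads each over the 6 libraries and a median of 208. The other 136 had at most 65 reads and a median of 25. As a share of all counts, the antisense lncRNAs took 0.177% ± 0.0196 in aerial and 0.180% ± 0.00774 in root libraries (mean ± SD, n = 3). The difference of 0.00338 percentage points was smaller than the spread between the aerial libraries (exact two-sided permutation test, p = 1, where 0.1 is the smallest p that 3 against 3 libraries can give). With the locus that had the most reads (YMR194C-B) left out of the share of all counts on antisense lncRNAs, the difference was 0.00822 percentage points and the cell types did not overlap (exact permutation test, p = 0.1).

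Some of the genes with many sense reads had hardly any antisense reads. Over 176 antisense lncRNAs whose sense gene had at least 5000 reads, the median was 0.558 antisense reads per 100 sense reads. Of the 176, 44 lay under 0.1, while the highest value was 160 per 100. The lowest value was that of RPL3, a protein of the large ribosomal subunit, with 3 antisense reads beside 148661 sense reads, which is 0.00202 per 100 (exact 95% interval 0.000416 to 0.00590, for counting error only). ADH2, the alcohol dehydrogenase used in growth on ethanol, had 15 antisense reads beside 433733 sense reads. A leak of sense reads to the wrong strand was not tested. At the other end of the range, 22 antisense lncRNAs had more reads than their sense gene. The comparison is of reads per locus, since the lengths of the antisense loci were not used here. RPL3 and ADH2 were picked out after their values were seen.

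**Figure D1:**
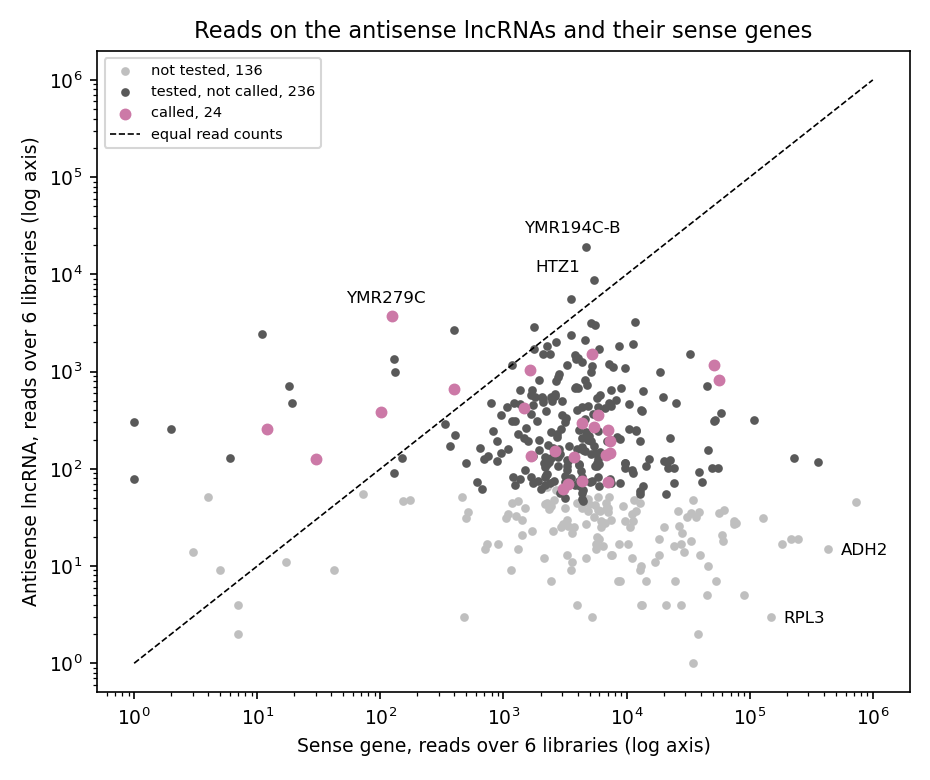
Reads summed over the 6 libraries for each sense gene (horizontal, log axis) and its antisense lncRNA (vertical, log axis), one point per antisense lncRNA with a sense row (24 of the 25 called, without YDR524W-C), and the dashed line marking equal counts. RPL3 lies at the lower right with 3 antisense reads, and YMR194C-B, HTZ1 and YMR279C lie above the line.

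The antisense lncRNA with the most reads was that of YMR194C-B (CMC4, a small protein of the mitochondrial intermembrane space). It had 6030, 2016 and 2091 counts in aerial replicates 1, 2 and 3 and 3660, 2062 and 3057 counts in the root replicates. A single aerial library was thus far above all others, and the cell types overlapped. The antisense lncRNA of KTR2, a mannosyltransferase of the Golgi, stood apart in the same library, with 1848 counts in aerial replicate 1 against 481 and 546 in the other aerial libraries and 706 to 1062 in the root libraries. Neither passed the test (log2 fold change root over aerial of -0.41 and adjusted p = 0.600 for YMR194C-B, -0.29 and adjusted p = 0.737 for KTR2). Without aerial replicate 1 the values were 0.64 and 0.96. The sense gene KTR2 was called higher in root cells (log2 fold change 1.09 ± 0.30 SE, adjusted p = 0.0247), a call that was kept in 1 of 6 fits that left out a library.

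Between the cell types, 25 of the 261 antisense lncRNAs tested were called, that is, they differed at least 2-fold with an adjusted p below 0.05. This is 9.58%, beside 20.0% of the 7971 loci tested, 17.6% of the other lncRNAs (323 of 1837, with a median of 184 reads) and 21.2% of the protein-coding loci. Of the 25, 16 were higher in root cells (6.13%, beside 10.8% of all loci) and 9 in aerial cells (3.45%, beside 9.20% of all loci). In all 25 the normalised levels of the cell types did not overlap. This was the case for 93 of the 261 tested (35.6%), beside 37.3% of the other lncRNAs and 48.5% of all loci. The median over all loci tested was 3446 reads, beside 208 for the antisense lncRNAs tested. In such bulk samples fewer cells of a type and less RNA per cell cannot be told apart. The median log2 fold change of the 261 was -0.02 beside -0.03 over all loci. The count depended on single libraries. It was 32 without aerial replicate 1, 37 without aerial replicate 2, 10 without root replicate 1 and 12 without root replicate 3, and 7 of the 25 kept their call whichever library was left out. Of the 136 that were not tested, 111 had over 3 reads in at least 1 library.

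**Figure D2:**
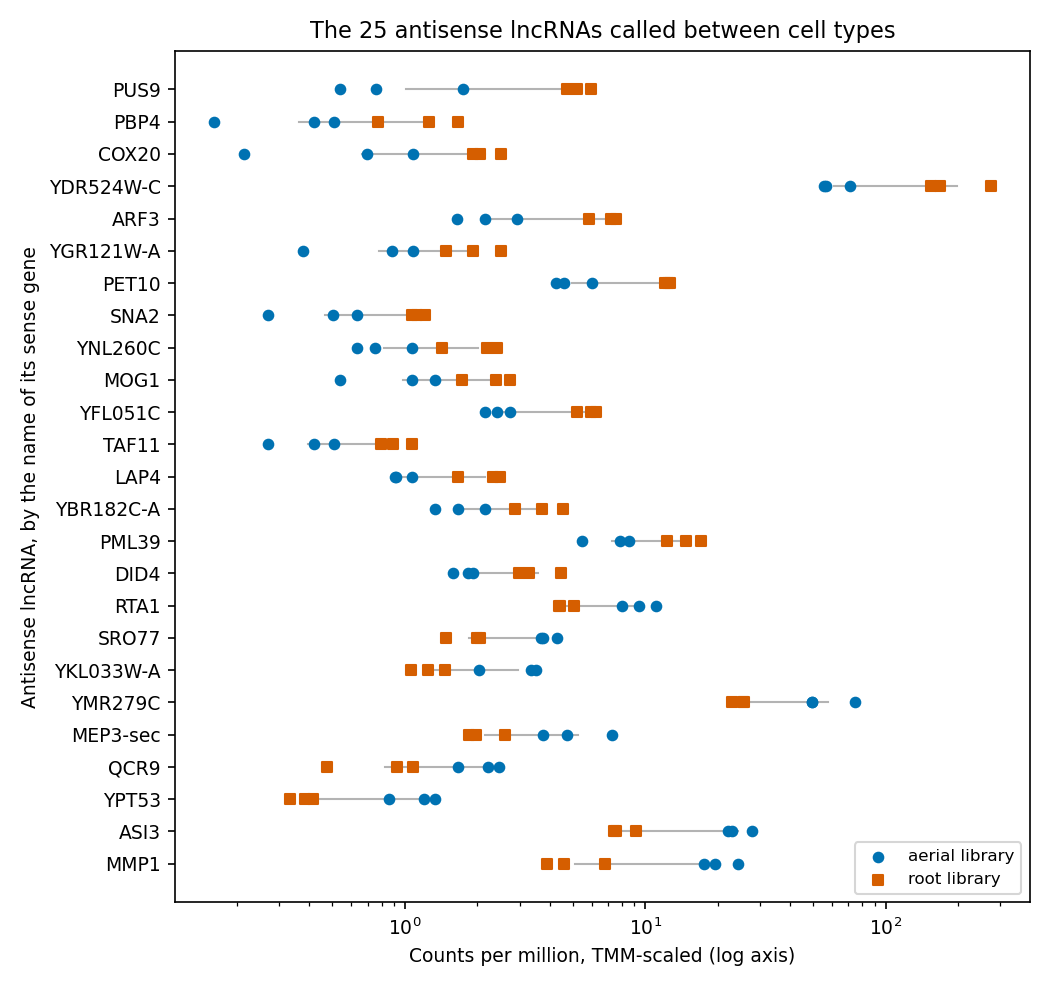
Normalised level (CPM after TMM scaling, log axis) of each of the 25 antisense lncRNAs called, named by its sense gene, with circles for the 3 aerial and squares for the 3 root libraries and a grey line joining the means. In no row do circles and squares overlap, from MMP1 (17.6 to 24.4 CPM in aerial, 3.91 to 6.79 CPM in root) at the bottom to PUS9 at the top.

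Among the antisense lncRNAs higher in aerial cells, that of MMP1 had the largest fold change. MMP1 is a permease for S-methylmethionine (chrXII:17956-19707, plus strand). Its antisense lncRNA was at 24.4, 19.5 and 17.6 CPM in the aerial and at 3.91, 6.79 and 4.60 CPM in the root libraries, so that the lowest aerial library was above the highest root library. The log2 fold change was -2.001 ± 0.27 (SE, adjusted p = 0.00132), and the call was kept in all 6 fits that left out a library. On the sense strand MMP1 was at 346 to 580 CPM in aerial and 590 to 775 CPM in root libraries, with a log2 fold change of 0.71 that did not pass the test (adjusted p = 0.0705). There were 4.20, 5.60 and 5.09 antisense reads per 100 sense reads in aerial and 0.548, 1.15 and 0.594 in root libraries, which is a description, since MMP1 was named for its antisense change.

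The antisense lncRNA of ASI3, which encodes a part of a ubiquitin ligase of the inner nuclear membrane, came next. It was at 23.0, 22.1 and 27.8 CPM in aerial and at 7.56, 9.17 and 7.41 CPM in root libraries (log2 fold change -1.59 ± 0.21, adjusted p = 0.00121), a call kept in all 6 fits that left out a library. ASI3 itself had a log2 fold change of -0.38 (adjusted p = 0.104). The antisense lncRNA of YMR279C (ATR2, a relative of the boron exporter Atr1) was at 49.3 to 74.2 CPM in aerial and 22.9 to 25.8 CPM in root libraries (log2 fold change -1.22 ± 0.21, adjusted p = 0.00356). Hardly any sense RNA was found beside it, with 124 sense reads against 3768 antisense reads in all, and the sense gene did not pass the test (log2 fold change -0.31, adjusted p = 0.546). The call on the antisense strand was lost without aerial replicate 1, where the log2 fold change was -0.99.

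The other named antisense lncRNAs that were higher in aerial cells had few reads. They belong to YPT53 (a Rab GTPase of the endocytic pathway, log2 fold change -1.54), QCR9 (a subunit of respiratory complex III, -1.36), YKL033W-A (-1.22) and SRO77 (a protein of exocytosis, -1.09), with adjusted p of 0.0120 to 0.0202. For YPT53 the counts were 16, 16 and 19 in aerial and 5, 7 and 6 in root libraries. Each of these calls was lost in some fits that left out a library, among them root replicates 1 and 2 for all 4 of them, and then the adjusted p reached at most 0.0911. None of the 4 sense genes was called. At YKL033W-A the strands were called in opposite directions with the limit at 1.5-fold, with a replicate block and without aerial replicate 1.

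PUS9 (chrIV:387513-388901, minus strand), a pseudouridine synthase for mitochondrial tRNA, had the antisense lncRNA with the largest rise in root cells. It was at 1.75, 0.537 and 0.758 CPM in aerial and at 5.97, 4.71 and 5.18 CPM in root libraries. All root libraries were well above all aerial libraries, with a log2 fold change of 2.44 ± 0.40 (adjusted p = 0.00280) that was called whichever library was left out. The sense strand had a log2 fold change of 0.76 ± 0.24 (adjusted p = 0.0383), which is under 2-fold, and it was called only without aerial replicate 2 (1.06).

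The antisense lncRNA of ARF3, a GTPase of the Arf family with a role in cell polarity, was at 2.92, 2.15 and 1.64 CPM in aerial and at 7.23, 5.84 and 7.54 CPM in root libraries (log2 fold change 1.63 ± 0.27, adjusted p = 0.00328). That of PET10 (PLN1, a perilipin of lipid droplets) was at 4.26, 6.01 and 4.61 CPM in aerial and at 12.1, 12.7 and 12.4 CPM in root libraries (1.32 ± 0.22, adjusted p = 0.00307). Both calls were kept in all fits that left out a library. The sense genes had log2 fold changes of 0.05 for ARF3 and -0.29 for PLN1, with adjusted p of 0.917 and 0.545.

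The antisense lncRNA of YDR524W-C was abundant, at 56.3, 55.3 and 71.2 CPM in aerial and at 274, 154 and 169 CPM in root libraries (log2 fold change 1.71 ± 0.26, adjusted p = 0.00201, called in all 6 fits that left out a library). No sense row was used for it. The remaining antisense lncRNAs named here as higher in root cells were near the filter, at 74 to 131 reads in all. They belong to PBP4 (log2 fold change 1.79), COX20 (a chaperone in the assembly of cytochrome c oxidase, 1.77), YGR121W-A (1.38) and SNA2 (1.30), with adjusted p of 0.0197 to 0.0334. All 4 calls were lost without root replicate 1, with log2 fold changes of 1.16 to 1.80. SNA2 was also not called by DESeq2 or with upper quartile normalization, and YGR121W-A not with upper quartile normalization.

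On the sense strand, 89 of the 367 sense genes tested were called, which is 24.3%, beside 21.2% of all protein-coding loci. Of these, 60 were higher in root cells (16.3% of the 367, beside 12.1% of protein-coding loci) and 29 in aerial cells (7.90%, beside 9.13% of protein-coding loci). Both strands were tested in 251 pairs. In 185 of them neither strand was called, in 44 only the sense gene, in 20 only the antisense lncRNA, and in 2 both. Of these 2 pairs, 1 changed in opposite directions and the other in the same direction. The number of pairs called on both strands depended on single libraries, with 9 without aerial replicate 2, 7 without aerial replicate 1, 4 without aerial replicate 3 or root replicate 2, and 1 without root replicate 1. Where only the sense gene was called, the antisense log2 fold change had the other sign in 19 of the 26 pairs with the sense gene higher in root cells (median -0.51) and in 14 of the 18 pairs with the sense gene higher in aerial cells (median 0.21). Across all 251 pairs the signs were opposite in 149, and the log2 fold changes of the strands had a Pearson correlation of -0.21 and a Spearman correlation of -0.21. These correlations are across pairs that share the same 6 libraries and are given as a description.

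**Figure D3:**
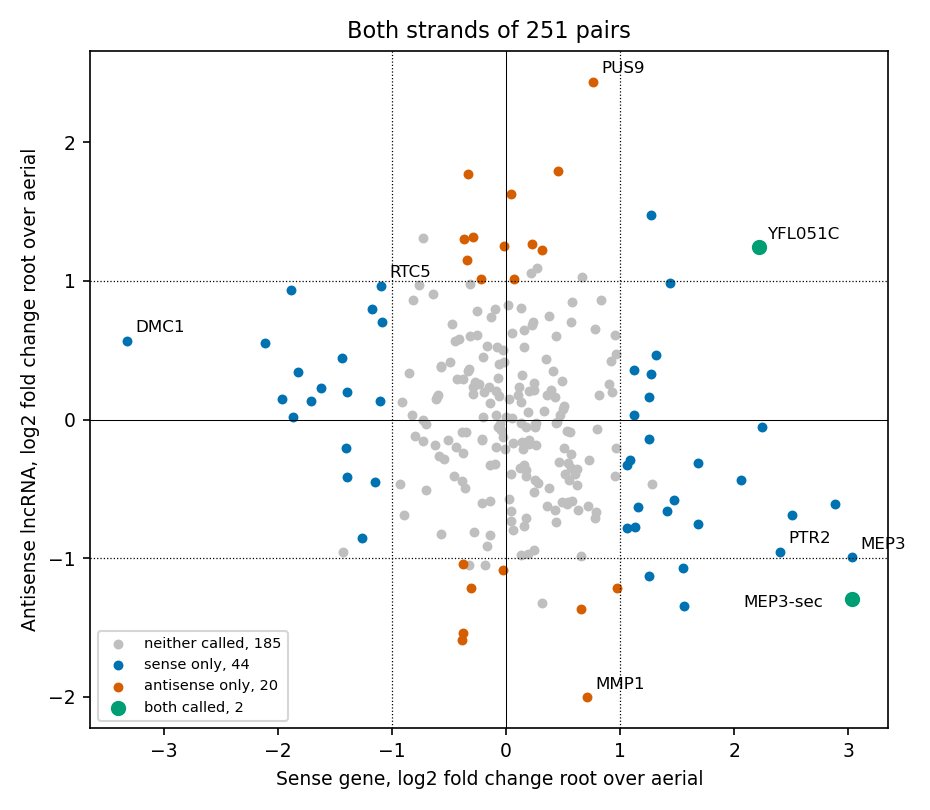
Log2 fold change root over aerial of the sense gene (horizontal) and of its antisense lncRNA (vertical) for the 251 pairs with both strands tested, coloured by which strand was called, with dotted lines at 2-fold. MEP3-sec at the lower right and YFL051C at the upper right are the 2 pairs called on both strands.

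The pair called in opposite directions was that of MEP3 (chrXVI:810984-812453, minus strand), a permease that takes up ammonium. MEP3 was at 17.0, 14.6 and 8.65 CPM in aerial and at 106, 98.1 and 125 CPM in root libraries. All root libraries were far above all aerial libraries (8.20-fold, log2 fold change 3.04 ± 0.27, adjusted p = 0.000444). A pair of antisense lncRNAs carries its name. The one with the suffix sec was at 3.76, 7.25 and 4.74 CPM in aerial and at 1.86, 2.62 and 1.98 CPM in root libraries. It thus fell where MEP3 rose, with a log2 fold change of -1.29 ± 0.31 (adjusted p = 0.0139). The call was lost without aerial replicate 2 (log2 fold change -0.98), without root replicate 1 (adjusted p = 0.0688) and without root replicate 3 (adjusted p = 0.0736). The antisense lncRNA without the suffix was just under 2-fold, at 1.26 to 2.26 CPM in aerial and 0.767 to 0.953 CPM in root libraries (log2 fold change -0.99 ± 0.33, adjusted p = 0.0465).

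The pair of MEP3 and its sec lncRNA was singled out for its opposite calls, so the ratio of the strands is a description. There were 22.1, 49.8 and 54.7 reads on the sec lncRNA per 100 MEP3 reads in aerial and 1.75, 2.67 and 1.58 in root libraries. GATA factors activate ammonium permease genes of yeast when good nitrogen sources are scarce. The 300 bases from 250 before to 50 after the first base of the MEP3 start codon (chrXVI:812404-812703, minus strand, written along MEP3) were searched on both strands for the word that GATA factors bind (GATAAG), which was found once, on the other strand, and which is in 14.6% of the 6020 promoter windows of this length. The core of a TATA box (TATAAA, in 45.4% of the windows) and the word bound by the amino acid regulator Gcn4 (in 7.96%) were not found. The match, in capitals, is a description and not a binding site.
MEP3: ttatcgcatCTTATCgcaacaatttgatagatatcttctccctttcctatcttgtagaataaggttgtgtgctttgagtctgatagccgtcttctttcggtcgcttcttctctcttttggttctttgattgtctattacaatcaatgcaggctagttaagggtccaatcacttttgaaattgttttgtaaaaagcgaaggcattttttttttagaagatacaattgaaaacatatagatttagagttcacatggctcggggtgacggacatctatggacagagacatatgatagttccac

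The pair called in the same direction was YFL051C (chrVI:30058-30540, minus strand), a gene near an end of its chromosome. Its antisense lncRNA was at 2.42, 2.74 and 2.15 CPM in aerial and at 6.23, 5.18 and 5.94 CPM in root libraries (log2 fold change 1.24 ± 0.23, adjusted p = 0.00495). The sense row held 9, 5 and 3 counts in aerial and 17, 34 and 34 counts in root libraries (2.22 ± 0.51, adjusted p = 0.0111). Both calls were kept in all 6 fits that left out a library. With at least 10 counts asked of every library the sense row was not tested.

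Several pairs lay just under the 2-fold limit on the antisense strand. With the limit at 1.5-fold, which calls 30.6% of all loci, 44 antisense lncRNAs were called, 10 pairs changed in opposite directions and 2 in the same direction. PTR2, a transporter of small peptides, was at 187, 168 and 167 CPM in aerial and at 1065, 872 and 830 CPM in root libraries (log2 fold change 2.41 ± 0.21). Its antisense lncRNA was at 4.01, 5.37 and 3.66 CPM in aerial and at 2.12, 2.26 and 2.37 CPM in root libraries (-0.95 ± 0.25, adjusted p = 0.0206). Antisense reads per 100 sense reads were 2.14 to 3.19 in aerial and 0.199 to 0.285 in root libraries, with no overlap.

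RTC5 went the other way. The sense gene was at 92.4, 68.6 and 65.7 CPM in aerial and at 31.6, 36.3 and 38.2 CPM in root libraries (log2 fold change -1.10 ± 0.19, adjusted p = 0.00384). Its antisense lncRNA was at 17.9, 30.6 and 19.1 CPM in aerial and at 45.4, 44.4 and 42.4 CPM in root libraries (0.97 ± 0.23, adjusted p = 0.0140). In aerial cells the sense reads were in excess, with 19.3 to 44.6 antisense reads per 100 sense reads, and in root cells the antisense reads, with 111 to 144 per 100. PTR2 and RTC5 were picked out after their values were seen.

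HTZ1, which encodes the histone variant H2A.Z, was among the 5 with most antisense reads. Its antisense lncRNA was at 75.1, 51.3 and 72.5 CPM in aerial and at 126, 105 and 130 CPM in root libraries (log2 fold change 0.86 ± 0.20, adjusted p = 0.0122, 1.81-fold). The sense gene was at 50.3, 67.0 and 102 CPM in aerial and at 48.8, 39.8 and 35.9 CPM in root libraries (-0.82 ± 0.27, adjusted p = 0.0429). The lowest aerial and the highest root library were close on the sense strand. Antisense reads per 100 sense reads were 149, 76.7 and 70.8 in aerial and 258, 265 and 361 in root libraries.

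**Figure D4:**
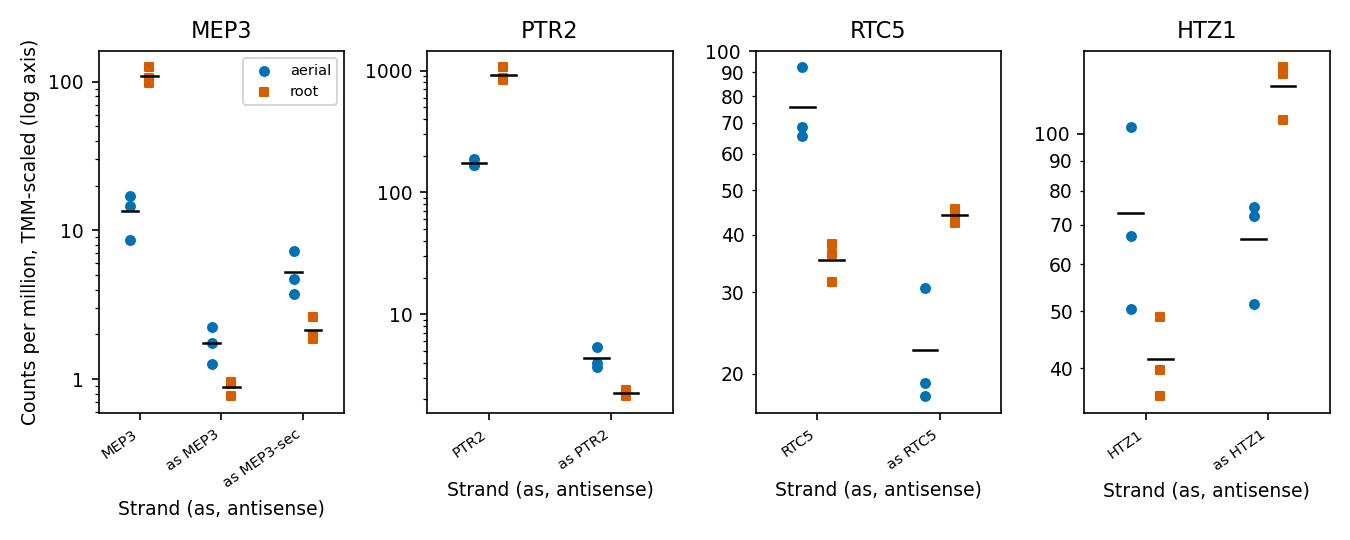
Normalised level (CPM after TMM scaling, log axes that differ between panels) of the sense gene and of its antisense lncRNA (as) at MEP3, PTR2, RTC5 and HTZ1, with circles for aerial and squares for root libraries and bars at the means. At MEP3 and PTR2 the sense gene is higher and the antisense lncRNA lower in root libraries, and at RTC5 and HTZ1 the reverse is seen.

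The sense genes were also grouped by what they do, and the calls were counted on each strand. All 19 cytosolic ribosomal protein genes on the list were called higher in root cells (median log2 fold change 1.53, beside -0.03 over all loci), while only 2 of the 20 antisense lncRNAs at these genes passed the filter, both at RPS29A, and neither was called (-0.32 and -0.75, with 0 of the 2 at an unadjusted p under 0.05 in edgeR). The 4 antisense lncRNAs at glycolysis genes had 19 to 46 reads and none was tested. Another list held transporters of the plasma membrane and vacuole and the proton pump of the vacuole. Of its 15 sense genes, 33.3% were called, beside 21.2% of protein-coding loci. Higher in root cells were 4 (MEP3, PTR2, the iron oxidase FET3 and the nicotinic acid transporter TNA1), and 1 was higher in aerial cells. Of the 14 antisense lncRNAs tested at this group, 2 were called, MMP1 and MEP3-sec, both higher in aerial cells. This is 14.3%, beside 9.58% of all antisense lncRNAs tested and 20.0% of all loci. Of the 14, 9 had an unadjusted p under 0.05 in edgeR, as did 76 of the 261 antisense lncRNAs tested (29.1%) and 43.1% of all loci. The median antisense log2 fold change was -0.51, beside -0.02 over all antisense lncRNAs tested and 0.44 on the sense strand. The values were -0.44 at FET3, -0.58 at TNA1 and -0.74 at NRT1, a nicotinamide riboside transporter, while at YHK8 the value was 0.65 and at the proton pump genes VMA11, STV1 and VMA3 it was 0.85, 0.53 and 0.06.

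For vesicle traffic, 1 of 20 sense genes was called, beside 21.2% of protein-coding loci. Of the 15 antisense lncRNAs tested there, 3 were called (ARF3 and DID4 higher in root, YPT53 higher in aerial cells). This is 20.0%, beside 9.58% of all antisense lncRNAs tested and 20.0% of all loci. DID4 encodes a subunit of the ESCRT-III complex, and its antisense lncRNA was at 1.58 to 1.92 CPM in aerial and 2.98 to 4.47 CPM in root libraries. With a log2 fold change of 1.01 (adjusted p = 0.0208) it fell just under the 2-fold limit with 3 of the other normalizations. For mitochondrial proteins, 9 of 37 sense genes (24.3%) and 2 of 24 antisense lncRNAs (8.33%) were called, those of COX20 and QCR9. For RNA and ribosome maturation, 5 of 20 sense genes (25%), all higher in root cells, and 1 of 16 antisense lncRNAs (PUS9, 6.25%) were called. For meiosis, recombination and mating, 4 of 9 sense genes (44.4%) were called, all higher in aerial cells. Among them was the meiotic recombinase DMC1 (log2 fold change -3.33). On the antisense strand of this list, 0 of 11 were called (2 at an unadjusted p under 0.05). No antisense lncRNA was called in the lists of amino acid and nucleotide metabolism (7 tested, 2 at an unadjusted p under 0.05), lipid metabolism (9 tested, 2), cell wall and eisosome (5 tested, 0), stress and redox (3 tested, 1) and transcription regulators (9 tested, 4).

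The gene that lies next to the sense gene, past its stop codon, was compared as well, a comparison added after values had been seen. Where this next gene is convergent, it is read from the same strand as the antisense lncRNA and towards it. Where it is tandem, it is read from the strand of the sense gene, opposite to the antisense lncRNA. In R64 the next gene was convergent for 58.7% of the antisense lncRNAs, beside 51.8% of 5895 annotated genes. The next gene was tested for 23 of the 25 antisense lncRNAs called. It was called in the same direction as the antisense lncRNA for 8 of them, 4 convergent and 4 tandem, and in the other direction for 0, where the calls over all loci were 10.8% for root and 9.20% for aerial cells.

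ASI3 and IDP3, a peroxisomal isocitrate dehydrogenase, face each other with 127 bases between the stop codons. IDP3 was at 107, 111 and 136 CPM in aerial and at 40.4, 38.1 and 36.8 CPM in root libraries (log2 fold change -1.62, beside -1.59 for the antisense lncRNA). ARF3 and RKI1, the ribose-5-phosphate isomerase of the pentose phosphate pathway, are 205 bases apart. RKI1 was at 21.1, 33.9 and 15.9 CPM in aerial and at 115, 97.8 and 103 CPM in root libraries (2.15, beside 1.63 for the antisense lncRNA). PRM15, a phosphoribomutase 97 bases from YMR279C, had a log2 fold change of -1.12 beside -1.22. The sense genes ASI3, ARF3 and YMR279C did not pass the test.

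At YDR524W-C, the convergent gene YDR524C-B lies 105 bases away. It was at 67.3, 58.3 and 85.7 CPM in aerial and at 291, 162 and 178 CPM in root libraries, close to the level of the antisense lncRNA in every library (1.58, beside 1.71). How reads that touch more than 1 locus were counted is not given in the sources used here, so the counts of such neighbours on 1 strand may not be separate.

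The tandem cases were PUS9 with BSC1 (log2 fold change 1.07), PET10 with YKR045C (1.14), YPT53 with YNL092W (-1.30) and YBR182C-A with SMP1 (1.49). SMP1 is a transcription factor of the MEF2 family. The antisense lncRNA of YBR182C-A was at 1.34, 1.66 and 2.15 CPM in aerial and at 3.71, 2.86 and 4.54 CPM in root libraries (1.09 ± 0.30, adjusted p = 0.0216), and SMP1 was at 10.7, 10.3 and 7.64 CPM in aerial and at 27.6, 25.0 and 27.6 CPM in root libraries. Of these next genes, BSC1 was called in 1 of 6 fits that left out a library and the other 3 in all 6. The 300 bases around the start of SMP1 (chrII:594815-595114, minus strand, written along SMP1) held the word of the GATA factors once on each strand, shown in capitals, and neither the TATA box core nor the Gcn4 word (TGACTC).
SMP1: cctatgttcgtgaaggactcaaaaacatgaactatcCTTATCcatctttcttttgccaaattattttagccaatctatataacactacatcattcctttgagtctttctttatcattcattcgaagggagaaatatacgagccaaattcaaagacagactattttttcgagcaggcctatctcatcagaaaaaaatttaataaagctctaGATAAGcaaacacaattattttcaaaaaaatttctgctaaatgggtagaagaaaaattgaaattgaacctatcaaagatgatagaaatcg

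Over all antisense lncRNAs tested, the antisense log2 fold change had a Spearman correlation of 0.33 with that of a convergent next gene (161 pairs) and of 0.16 with that of a tandem next gene (94 pairs). Annotated genes and their convergent next genes, which lie on opposite strands, had a correlation of 0.01 (2860 genes). Genes that converge on each other enter this value once from each side. Annotated genes and their tandem next genes had 0.12 (2643 pairs). These lie on the same strand, as do an antisense lncRNA and its convergent next gene. The sense genes of the antisense lncRNAs tested had 0.26 with a tandem (87 pairs) and -0.07 with a convergent next gene (158 pairs). Between the antisense lncRNA and its sense gene the correlation was -0.25 for the convergent and -0.16 for the tandem cases (161 and 90 pairs). All are descriptions across loci that share the 6 libraries, and no difference between them was tested. Counts of neighbours on the same strand may not be separate, as given for YDR524W-C. This limit also holds for the convergent values here and for the convergent next genes called above.

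**Figure D5:**
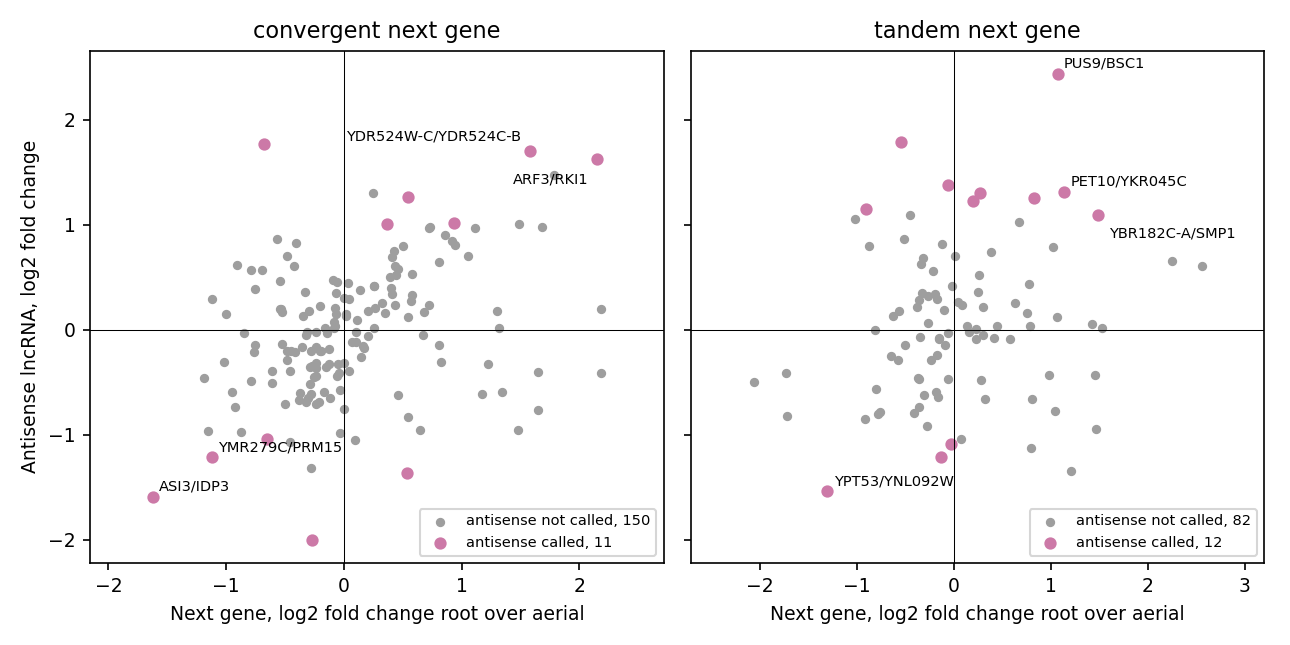
Log2 fold change root over aerial of the next gene past the sense stop codon (horizontal) and of the antisense lncRNA (vertical), for convergent (left) and tandem (right) next genes, with the called antisense lncRNAs as larger points. The 8 labels give the name of the sense gene, which stands for its antisense lncRNA, and the next gene. In these 8 the antisense lncRNA and the next gene were both called, in the same direction.

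Where 2 antisense lncRNAs carry the name of 1 sense gene, MEP3 was the only case with a call. For the other pairs of names with both members tested the values differed in sign at CPR2 (-0.24 and 0.30), EFM4 (-0.14 and 0.17), YMR317W (0.20 and -0.41) and PRM4 (0.12 and -0.83), and had 1 sign at HMS1 (-0.71 and -0.36), RPS29A (-0.32 and -0.75) and MRM2 (0.20 and 0.03). None of these passed the test.

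Of 29 genes whose products are known to degrade, terminate or silence antisense RNA in yeast, 4 were called, beside 21.2% of protein-coding loci. All 4 were higher in root cells, beside 12.1% of protein-coding loci. All were among the 7 genes tested of the nuclear exosome and its cofactors. The 4 were RRP6 and DIS3, the exosome nucleases (log2 fold change 1.07 and 1.06), MTR4, its helicase (1.32), and AIR1 of the TRAMP complex (1.23). The exosome group summed to 355 to 731 CPM in aerial and 1030 to 1144 CPM in root libraries. MTR4 was called in 1 of 6 fits that left out a library, RRP6 and DIS3 each in 5, and AIR1 in all 6. None of the 6 genes of 5′ decay, among them XRN1, the 3 of Nrd1-Nab3-Sen1 termination, the 3 of nonsense-mediated decay and the 10 chromatin genes was called. Their part in the antisense values was not tested.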

How the data were processed

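Per the labels and the paper's methods, the authors mapped reads to SacCer3 with TopHat2 2.0.14 against R64 coding and lncRNA loci and counted them by strand with featureCounts; the deposited values are raw counts per locus. All value columns were used. A line naming no locus (2 to 6 counts per library) was left out. Sense genes were matched by symbol (297), systematic name (91) or older symbol (9) to RefSeq R64.

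Counts were analysed with edgeR 4.0.16 in R 4.3.3 (filterByExpr, TMM factors of 0.871 to 1.09, quasi-likelihood F test), with Benjamini-Hochberg adjustment over the 7971 loci tested. Calls needed 2-fold and an adjusted p below 0.05. Log2 fold changes are root over aerial with standard errors, and levels are CPM at TMM-scaled library sizes. Log2 ratios of reads used a pseudocount of 1. Exact permutation tests of 23 such ratios cannot fall below p = 0.1 and are not quoted. DESeq2 1.42.0, other normalizations, filters, limits, a replicate block and each library left out were alternatives. The procedure was tested on simulated data.

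Named were the 8 called antisense lncRNAs with the largest change in each direction without overlap, pairs called on both strands, the 5 with most reads, those sharing a called sense name, and called members of the function lists. The members and lists were chosen with earlier results of these data known. The next-gene comparison was added later. Python 3.11.15, scipy 1.17.1 and matplotlib 3.10.9 were used.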

Additional observations from a re-analysis of the deposited data

How the results depend on the processing

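The call of 25 antisense lncRNAs became 44 (25 higher in root, 19 in aerial) with a 1.5-fold limit, where 12 pairs were called on both strands, 10 in opposite directions and 2 in the same. With at least 10 counts in every library, 18 of the 202 tested were called, 10 of them higher in root, 5 in the function lists, and 1 pair on both strands with 0 in the same direction. Pairs called on both strands numbered 4, of which 3 opposite, with upper quartile normalization and with TMM factors from protein-coding loci (FUR1 and MEP3 were added), and opposite pairs 2 with library sizes alone, with no filter and with DESeq2. Pairing of the samples by replicate number was not shown by the correlations of deviations (-0.14, 0.14 and -0.04). With 3 libraries per group they cannot exclude it. A replicate block gave 26 calls and 5 pairs on both strands, 3 opposite and 2 in the same direction.

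Leaving out 1 library gave 10 to 37 antisense calls, 7 to 22 higher in root and 3 to 15 in aerial, 71 to 108 sense calls, 1 to 9 pairs on both strands, 0 to 6 opposite and 1 to 3 in the same direction, 40 to 63 sense and 4 to 15 antisense calls in the function lists, and a difference in the share of all counts on antisense lncRNAs of -0.00482 to 0.0142 percentage points. With 2 aerial libraries left (without replicate 2) 37 were called, and MEP3-sec was not an opposite pair without that library or without root replicates 1 or 3. The log2 ratio of strands at YMR194C-B was -0.26, and -0.59 to 0.39 with 1 library left out, positive without aerial replicate 1. Of the 25 calls, 23 were shared with DESeq2 and 19 with upper quartile normalization. Low counts limit the 136 antisense lncRNAs that were not tested. Causes of these changes were not tested.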
